A study of Mus musculus with 51 samples.

Results

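Mammals carry many forkhead transcription factors, and the 3 FoxA proteins are the ones best known in liver. The 10 genes described here are forkhead genes outside the FoxA group: Foxo1, Foxo3, Foxo4, Foxp1, Foxk1, Foxk2, Foxj2, Foxj3, Foxn3 and Foxm1. They were listed by name, and their values were read from an RPKM matrix (reads scaled for gene length and sequencing depth) of 33773 gene symbols, of which 41 are forkhead genes. The question was whether these genes changed when FoxA genes were lost.

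Forkhead proteins share a winged helix DNA-binding domain, and many of them bind variants of one core motif. FoxA proteins are pioneer factors, which can bind their sites in closed chromatin and are needed for liver development. FoxO proteins respond to insulin: when insulin signalling is low they are nuclear and activate genes of glucose production, autophagy and stress defence, and when it is high AKT phosphorylates them and they leave the nucleus. FoxO activity is thus set mainly on the protein, so RNA levels of FoxO genes do not report it directly. FoxM1 drives genes of mitosis and is low in resting hepatocytes, FoxK proteins act in autophagy and glycolysis, and FoxP proteins act mostly as repressors.

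RNA was sequenced from mouse hepatocytes in 4 groups and from mouse liver in 2. The triple null group (n = 4) came from mice with loxP-flanked Foxa1 and Foxa2 and no functional Foxa3 (FoxA1L/L/FoxA2 L/L/FoxA3-/-), in which the virus AAV8 brought Cre recombinase under the hepatocyte-specific Tbg promoter at an age of 8 weeks. The FoxA3 null group (n = 4) is its control, with the same transgenes and a virus expressing GFP, so both groups lack FoxA3. The FoxA1/A2 lox group (lox, n = 3) carries loxP-flanked alleles without a deletion, and the FoxA1/A2 Cre alfp group (Cre alfp, n = 4) carries the Foxa1 and Foxa2 deletion with FoxA3 present. The liver libraries are labelled HNF4a control (n = 2) and HNF4a null (n = 4, depleted in adult liver). The labels do not say that replicates are separate animals, so p-values measure the spread between these libraries, which may be technical.

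Several facts of the whole series bear on the forkhead genes. Foxa2 was 0.243 to 0.47 RPKM in the triple null against 11.1 to 20.6 in FoxA3 null, and Foxa1 was 3.04 to 3.63 against 6.14 to 10.1, so Foxa1 RNA was reduced but still present. In Cre alfp, Foxa1 was 1.14 to 1.34 RPKM and Foxa2 0.991 to 1.26, so the RNA left differed between the deletions. Foxa3 was at or near 0 in the triple null and FoxA3 null and 27.7 to 34.5 RPKM in Cre alfp. All RPKM values of a library summed to 1041570 to 1328380 in lox and Cre alfp and to 726455 to 921947 in FoxA3 null and triple null. The labels name no batch. A virus is described above for triple null and FoxA3 null but not for lox and Cre alfp. Between these 2 pairs of groups a technical difference, the virus and the FoxA3 genotype cannot be told apart. Hepatocyte markers summed to 28162 to 35670 RPKM in the triple null and to 41274 to 50291 in the other hepatocyte groups, and lymphocyte markers to at most 1.66. Not all hepatocyte markers moved together. Of 10 tested in triple null against FoxA3 null, 2 were higher and 5 lower at a limma adjusted p under 0.05. There 29.7% of all tested genes passed. Endothelial markers summed to 7.7 to 14.5 RPKM in the triple null and 25.5 to 40.1 in FoxA3 null. Stellate and fibroblast markers were 6.27 to 22.6 against 24.3 to 33.6 RPKM, also without overlap. Erythroid markers did not move together: Alas2 fell from 38.9 to 1.04 RPKM, while the globin genes Hba-a1 and Hbb-b1 rose from 0.790 to 5.72 and from 1.24 to 6.17. Neutrophil markers summed to 9.13 to 109 RPKM in the triple null and 0.717 to 1.68 in FoxA3 null, with Ly6g at 0 in both groups. The part of these markers in the values below was not tested. In bulk RNA, fewer cells of a type and less RNA per cell cannot be told apart. Hnf4a RNA was 487 to 545 RPKM in libraries labelled HNF4a null but 118 to 126 in the controls, against the label. A transcript without the deleted exons and exchanged labels cannot be told apart from this gene, and exchanged labels would turn every direction given for liver. Absolute depth is unknown, and relative depth was 2.01 to 4.07 in hepatocytes and 1 to 1.1 in liver.

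FoxO genes were the most abundant of the 10 in the triple null and FoxA3 null. In the triple null, Foxo3 led at 15.6 ± 1.47 RPKM (mean ± SD, n = 4), and its lowest library lay above the highest library of Foxo1, at 11.0 ± 1.72 RPKM. Foxo1 and Foxo4 (8.52 ± 1.82 RPKM) overlapped each other, and both stood apart from Foxp1 (3.99 ± 0.625), Foxk2 (3.86 ± 0.166) and Foxn3 (3.81 ± 0.871), which overlapped. Foxk1, Foxj3 and Foxj2 followed at 2.53 ± 0.512, 2.07 ± 0.469 and 1.96 ± 0.39 RPKM. In lox, the order differed: Foxo1 led at 7.72 ± 1.66 RPKM (n = 3), and Foxn3, Foxp1 and Foxo3 overlapped with their neighbours at 6.78 ± 0.848, 6.71 ± 1.23 and 4.84 ± 2.13 RPKM. The control livers were led by Foxn3, at 10.4 ± 0.535 RPKM (n = 2), above Foxo3 at 7.21 ± 0.429. In all 6 groups Foxm1 was lowest, at most 0.471 RPKM in any library, and its libraries did not overlap with those of Foxj2, the next gene up.

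The summed RPKM of the 10 genes was 53.5 ± 3.89 in triple null hepatocytes and 48.9 ± 13.3 in FoxA3 null, and 43.5 ± 3.45 in Cre alfp and 39.0 ± 3.76 in lox. The summed RPKM of the FoxA genes was 3.65 ± 0.295, 22.2 ± 5.95, 33.4 ± 3.01 and 44.1 ± 2.11 in the same order. The sum of the 10 genes lay above that of the FoxA genes, with no overlap between the libraries, in the triple null, FoxA3 null and Cre alfp, and both overlapped in lox. The sums of the 10 genes overlapped between triple null and FoxA3 null only through FoxA3 null replicate 1, at 68.7 RPKM, above every triple null library.

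**Figure D1:**
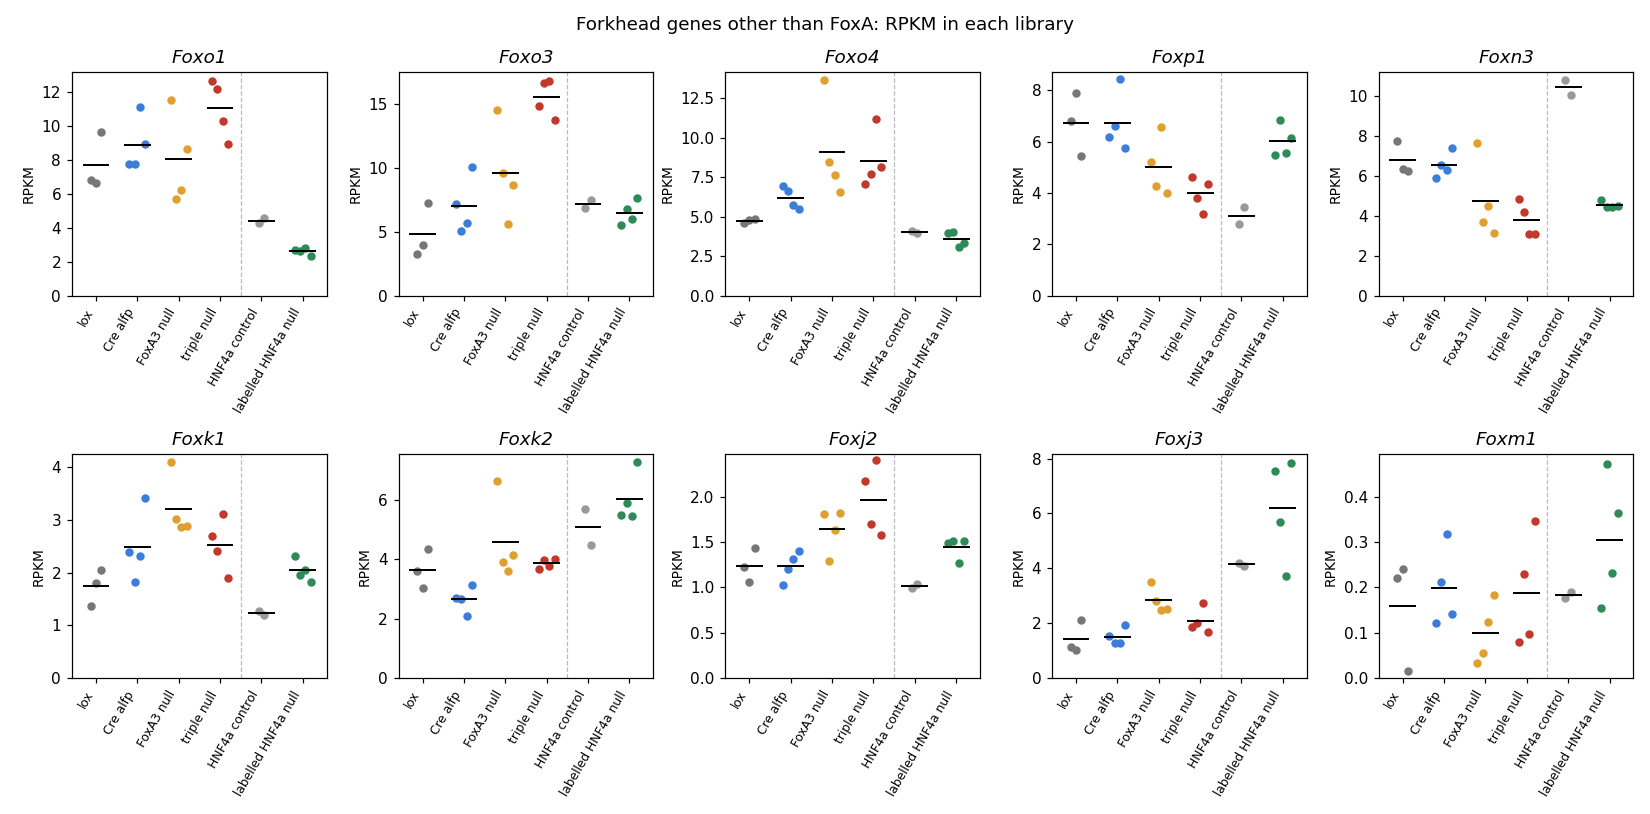
RPKM (y axis, from 0, scale differing by gene) of the 10 forkhead genes in each library (points) of the 6 groups (x axis), with group means as bars; the dashed line parts hepatocytes from liver. Foxo3 was highest in the triple null, at 13.8 to 16.9 RPKM, and Foxm1 stayed at or below 0.471 RPKM.

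Triple null against FoxA3 null asks what the loss of Foxa1 and Foxa2 did in cells without FoxA3. None of the 9 forkhead genes that could be tested passed (limma on log2(RPKM + 1), Benjamini-Hochberg adjusted p under 0.05 over all 11500 tested genes), where 29.7% of all tested genes passed. No member passed with a log2 difference of at least 1 either, where 8.11% of all genes did. Of these 9 genes, 2 had an unadjusted p under 0.05, Foxo3 and Foxo1, and both were higher in the triple null. The authors' deposited table passed 3 of 9, Foxo3 and Foxo1 higher and Foxk1 lower, where it passed 42.7% of all genes. Foxm1 was too low to enter the test.

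Foxo3, which shares most FoxO targets and acts in autophagy and quiescence, was 14.9, 16.7, 16.9 and 13.8 RPKM in the triple null and 14.6, 9.65, 5.66 and 8.68 in FoxA3 null. The groups overlapped only through FoxA3 null replicate 1. The log2 difference was 0.70 (SE 0.26, adjusted p = 0.0553 by limma), and 0.67 in the authors' deposited table (adjusted p = 0.0125). Without that library it was 0.90, with limma adjusted p = 0.0167. The difference also passed narrowly after median scaling (adjusted p = 0.0496) and with only the 2 groups in the fit (adjusted p = 0.0495).

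Foxo1, the main FoxO of insulin-regulated glucose production, was 12.7, 12.2, 10.3 and 8.96 RPKM in the triple null and 11.5, 5.68, 6.25 and 8.67 in FoxA3 null. Again FoxA3 null replicate 1 lay within the range of the triple null, and the other libraries of that group lay below it. The log2 difference was 0.45 (SE 0.19, adjusted p = 0.0978 by limma), and 0.49 in the authors' deposited table (adjusted p = 0.0483). Without FoxA3 null replicate 1 it was 0.62, with limma adjusted p = 0.0201. Foxo4, the third FoxO gene, was 7.04, 7.69, 11.2 and 8.17 RPKM in the triple null and 13.6, 8.47, 7.63 and 6.56 in FoxA3 null. Its groups overlapped, with a log2 difference of -0.05 (95% interval -0.44 to 0.33). Replicate 1 of FoxA3 null was also the highest library of its group for Foxk1, Foxk2, Foxj3 and Foxn3. Its relative depth, at 2.24, lay within the 2.05 to 2.42 of its group. All its RPKM values summed to 726455, the lowest of the 21 libraries, against 802601 to 873268 in the rest of its group. The 10 members summed to 68.7 RPKM in it and to 42.8, 41.3 and 42.6 in FoxA3 null replicates 2 to 4. The cause was not tested.

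**Figure D2:**
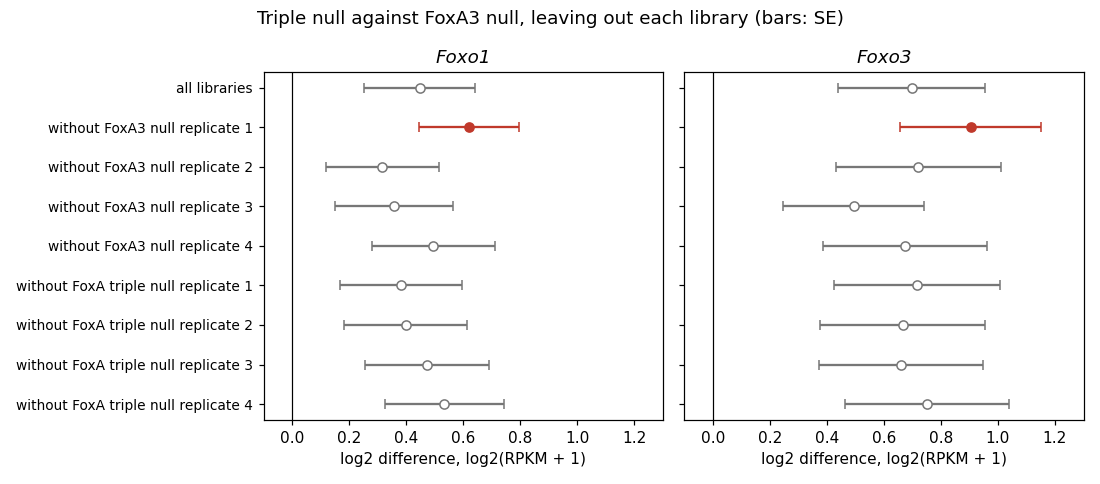
Log2 difference of Foxo1 and Foxo3 (x axis, log2(RPKM + 1) scale) between triple null and FoxA3 null with all libraries and without each one (y axis); points are estimates, bars their SE, and filled points passed at adjusted p under 0.05. The only setting shown in which either gene passed left out FoxA3 null replicate 1, at 0.62 for Foxo1 and 0.90 for Foxo3.

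The repressors did not pass. Foxp1 was 4.61, 3.81, 3.2 and 4.34 RPKM in the triple null and 5.21, 4.26, 6.58 and 4 in FoxA3 null, a log2 difference of -0.26 (95% interval -0.60 to 0.08). Foxn3, a repressor of hepatic glucose use and cell cycle genes, was 4.86, 4.19, 3.11 and 3.09 RPKM against 7.63, 3.66, 4.47 and 3.16, a log2 difference of -0.21 (95% interval -0.63 to 0.21). Both groups of libraries overlapped for each gene.

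Foxk1 was 2.7, 2.41, 3.12 and 1.9 RPKM in the triple null and 4.1, 3.01, 2.86 and 2.89 in FoxA3 null. Only the third triple null library lay within the range of the controls. The log2 difference was -0.26 (SE 0.16, adjusted p = 0.232 by limma), while the authors' deposited table gives -0.57 (adjusted p = 0.0124). Foxk2, its paralog, differed by -0.17 (95% interval -0.49 to 0.16). Foxj2 and Foxj3, related factors with no settled role in liver, differed by 0.16 (-0.09 to 0.41) and -0.33 (-0.66 to 0.01) on the log2 scale. The 9 differences ran from -0.33 to 0.70, with a median of -0.17, where the median over all tested genes was 0.05. The intervals leave room for changes of up to 1.25 on the log2 scale for Foxo3 and 0.86 for Foxo1.

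Foxm1 was 0.0792, 0.23, 0.097 and 0.346 RPKM in the triple null and 0.0326, 0.0554, 0.123 and 0.184 in FoxA3 null. The libraries overlapped. In a fit without the filter on low values the log2 difference was 0.11 (SE 0.09, adjusted p = 0.506 by limma).

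Cre alfp against lox also removes Foxa1 and Foxa2, by the Cre labelled alfp and with FoxA3 present. None of the 9 tested genes passed, also at an unadjusted p under 0.05, where 5.46% of all tested genes passed. Foxo3 was 7.19, 5.09, 5.71 and 10.1 RPKM in Cre alfp and 3.27, 3.98 and 7.26 in lox, a log2 difference of 0.48 (SE 0.28, adjusted p = 0.407 by limma). The groups overlapped through the third lox library. Foxo4 was 6.94, 6.63, 5.77 and 5.49 RPKM in Cre alfp and 4.58, 4.81 and 4.85 in lox. It was the only member whose groups did not overlap, as in 19.9% of all tested genes, with a log2 difference of 0.32 (SE 0.19, adjusted p = 0.424 by limma). The other 7 members ranged from -0.35 for Foxk2 to 0.33 for Foxk1. No member passed in the interaction, the difference between the effects of the 2 deletions, where 14.4% of all genes passed. One member had an unadjusted p under 0.05 there, Foxk1, at -0.59 (SE 0.23, adjusted p = 0.0993 by limma).

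**Figure D3:**
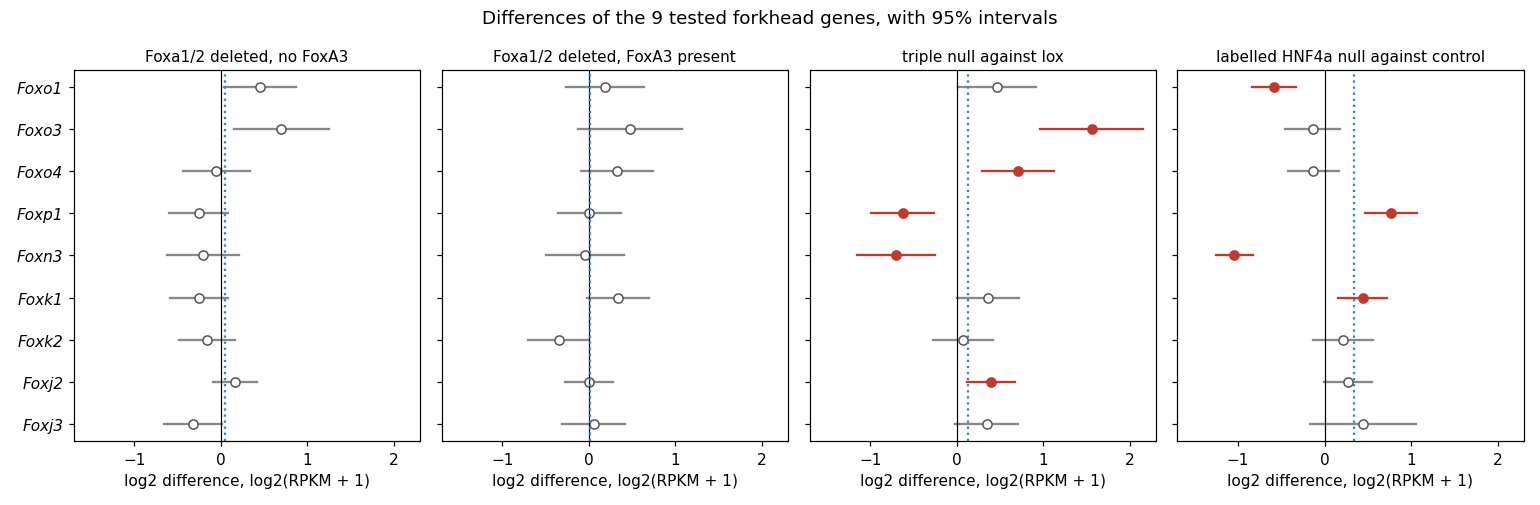
Log2 differences (x axis, log2(RPKM + 1) scale) with 95% intervals for the 9 tested forkhead genes (y axis) in 4 comparisons; filled red points passed at adjusted p under 0.05, and the dotted blue line is the median of all tested genes. No point is filled in triple null against FoxA3 null or in Cre alfp against lox, and Foxo3 is the farthest right against lox, at 1.56.

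More members passed between the 2 pairs of groups, where a technical difference, the virus and the FoxA3 genotype cannot be told apart. Triple null against lox sets loss of all FoxA genes against no deletion. Of the 9 tested members, 5 passed, 3 higher and 2 lower, where 42.5% of all tested genes passed. Foxo3 was higher by 1.56 (SE 0.28, adjusted p = 0.000562 by limma), with 13.8 to 16.9 RPKM against 3.27 to 7.26 and no overlap. It was also the only member with a log2 difference of at least 1, as were 13.5% of all tested genes. Foxo4 was higher by 0.71 (SE 0.19, adjusted p = 0.00941) and Foxj2 by 0.40 (SE 0.13, adjusted p = 0.0229). Foxp1 was lower, at 3.2 to 4.61 RPKM against 5.43 to 7.89, a log2 difference of -0.62 (SE 0.17, adjusted p = 0.00951). Foxn3 was lower too, at 3.09 to 4.86 RPKM against 6.24 to 7.76, a log2 difference of -0.71 (SE 0.21, adjusted p = 0.0152). The groups did not overlap for any of these 5 genes, as for 46.3% of all tested genes. The authors' deposited table passed 5 of 9, where it passed 51.6% of all genes, and gives 1.45 for Foxo3, 0.60 for Foxo4, 0.44 for Foxj2, -1.03 for Foxp1 and -1.14 for Foxn3. Foxn3 did not pass without lox replicate 1 (adjusted p = 0.0643), nor Foxp1 without lox replicate 2 (adjusted p = 0.0543), nor Foxj2 without either of them (adjusted p = 0.0594 and 0.0965) or without triple null replicate 3 (adjusted p = 0.0655). Foxj2 also did not pass after median scaling (adjusted p = 0.0951) or with only these 2 groups in the fit (adjusted p = 0.0593). Without lox replicate 3, Foxo1 and Foxj3 passed as well (0.62 and 0.54, adjusted p = 0.0469 and 0.0205), so that 3 to 7 members passed over these settings.

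Triple null and Cre alfp differ in FoxA3, in the virus, described for the triple null and not for Cre alfp, and in the deletion itself. Foxa1 was higher in the triple null by 0.94 (SE 0.16, adjusted p = 0.000403 by limma), with no overlap. The parts of FoxA3, the virus and the deletion cannot be told apart. Again 5 members passed, 3 higher and 2 lower, where 41.2% of all tested genes passed. Foxo3 was higher by 1.08 (SE 0.26, adjusted p = 0.0044 by limma), Foxk2 by 0.42 (SE 0.15, adjusted p = 0.0383) and Foxj2 by 0.40 (SE 0.12, adjusted p = 0.016). Foxp1 was lower, at -0.63 (SE 0.16, adjusted p = 0.00592), as was Foxn3, at -0.66 (SE 0.19, adjusted p = 0.0146). The authors' deposited table passed 5 of 9, where it passed 50.9% of all genes, and gives 0.95, 0.42, 0.46, -1.08 and -1.04 for Foxo3, Foxk2, Foxj2, Foxp1 and Foxn3. Foxo3 alone had a log2 difference of at least 1, as did 10.3% of all tested genes. Foxk2 and Foxj2 did not pass after median scaling (adjusted p = 0.0875 and 0.0558). Foxk2 did not pass without the filter on low values (adjusted p = 0.0716) or in 7 of the 8 fits that left out 1 library of the 2 groups. Foxj2 did not pass without Cre alfp replicate 1 or triple null replicate 3 (adjusted p = 0.0513 and 0.0526). Markers of other cells moved with these calls too. Of 8 tested endothelial markers, 8 were lower in the triple null than in Cre alfp and 4 lower than in lox, with medians of -1.17 and -0.78, and none was higher. All 6 neutrophil markers together summed to 9.13 to 109 RPKM in the triple null, 1.2 to 3.61 in Cre alfp and 0.836 to 1.43 in lox. Of 6 tested macrophage markers 2 were lower than in Cre alfp and none than in lox. Both of 2 tested cholangiocyte markers were lower than in lox (median -1.18) and none than in Cre alfp. Of 3 tested stellate and fibroblast markers, 1 was lower in each comparison, with medians of -0.94 against Cre alfp and -0.84 against lox. The part of these cells in the forkhead differences was not tested.

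FoxA3 null against lox holds Foxa1 and Foxa2 undeleted in both groups. Of the 9 tested members 4 passed, each of them higher in FoxA3 null, where 34.8% of all tested genes passed and 21.7% passed as higher. Foxo3 was higher by 0.86 (SE 0.28, adjusted p = 0.0289 by limma), Foxo4 by 0.76 (SE 0.19, adjusted p = 0.00956), Foxk1 by 0.62 (SE 0.17, adjusted p = 0.0133) and Foxj3 by 0.67 (SE 0.17, adjusted p = 0.00919). None of them reached a log2 difference of 1, which 7.19% of all tested genes did. Foxp1 and Foxn3 stood at -0.36 (adjusted p = 0.108) and -0.49 (adjusted p = 0.0801). Foxo3 overlapped between the groups and did not pass without FoxA3 null replicate 1 (0.66, adjusted p = 0.082), replicate 2 (adjusted p = 0.0599), lox replicate 1 (adjusted p = 0.129) or lox replicate 2 (adjusted p = 0.0997), nor without the filter on low values (adjusted p = 0.0736) or with only these 2 groups in the fit (adjusted p = 0.0781). Foxk1 did not pass without lox replicate 1 (adjusted p = 0.0662), nor Foxj3 without lox replicate 2 (adjusted p = 0.0508). Foxn3 passed as lower after median scaling (-0.60, adjusted p = 0.0396), after quantile normalization (-0.59, adjusted p = 0.0374) and without FoxA3 null replicate 1 (-0.71, adjusted p = 0.00767), and Foxp1 without FoxA3 null replicate 3 (-0.48, adjusted p = 0.0331). This comparison shares the lox libraries with triple null against lox, so their values are not independent. Of the tested markers, 1 of 2 cholangiocyte and 1 of 3 erythroid markers were lower in FoxA3 null, with none higher. Summed erythroid markers were 33.0 to 47.3 RPKM in FoxA3 null and 81.3 to 90.8 in lox. No tested endothelial, macrophage or stellate marker passed. The part of these markers in the forkhead differences was not tested.

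The libraries labelled HNF4a null differed from control liver in 4 of the 9 tested members, 2 higher and 2 lower, where 52.8% of all tested genes passed. The median of all genes in this comparison was 0.34 on the log2 scale, so values relative to it are given too. Foxn3 fell most: it was 10.8 and 10.1 RPKM in the controls and 4.79, 4.44, 4.44 and 4.5 in the libraries labelled HNF4a null. The libraries stood far apart, with a log2 difference of -1.04 (SE 0.09, adjusted p = 0.000224 by limma) or -1.38 with the all-gene median subtracted, and -1.60 in the authors' deposited table. It was the only member past a log2 difference of 1, as were 14.5% of all tested genes. Foxo1 fell from 4.26 and 4.58 RPKM to 2.68, 2.64, 2.8 and 2.33, a log2 difference of -0.59 (SE 0.11, adjusted p = 0.00429 by limma) or -0.92 with the all-gene median subtracted, and -1.18 in the authors' deposited table.

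Foxp1 rose from 2.79 and 3.44 RPKM to 5.49, 6.85, 5.56 and 6.13, with no overlap. Its log2 difference was 0.77 (SE 0.13, adjusted p = 0.00291 by limma), which is 0.43 above the all-gene median. Foxk1 was 1.27 and 1.2 RPKM in the controls and 2.32, 1.96, 2.05 and 1.82 in the other libraries, a log2 difference of 0.44 (SE 0.12, adjusted p = 0.0195 by limma) but 0.11 relative to the median. It did not pass after median scaling (adjusted p = 0.318) or quantile normalization (adjusted p = 0.341), nor without either control library (0.46 and 0.42, adjusted p = 0.0824 and 0.107), where the control left is assumed to vary like the other group. Foxj3 passed only without 1 library labelled HNF4a null (0.63, adjusted p = 0.0197); with all libraries it was 0.44 (adjusted p = 0.182).

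The authors' deposited table passed 7 of the 10 members in liver, where it passed 46.3% of all genes, and its differences centre near 0. It gives -0.74 for Foxo3 and -0.58 for Foxo4, which were -0.14 (adjusted p = 0.41) and -0.13 (adjusted p = 0.406) in limma, or -0.47 each relative to the median. After median scaling both passed as lower, at -0.41 and -0.40 (adjusted p = 0.0432 and 0.04), and Foxo4 passed after quantile normalization too (-0.43, adjusted p = 0.0323). For Foxk2 the sources differ in sign, at -0.56 in the authors' deposited table and 0.21 (95% interval -0.14 to 0.56) in limma. Summed markers moved with these values. Hepatocyte markers were 25661 to 26561 RPKM in control liver and 11930 to 13036 in those labelled HNF4a null, with 2 of 10 tested genes higher and 6 lower. By limma 52.8% of all tested genes passed there. Cholangiocyte markers were 16.7 to 17.0 RPKM in control liver against 132 to 230, higher in 6 of 6 tested genes. Endothelial markers were 149 to 166 RPKM against 181 to 204, and macrophage markers 97.5 to 107 against 116 to 151. Stellate and fibroblast markers were 97.0 to 110 RPKM against 119 to 140, and neutrophil markers 0.729 to 1.66 against 2.94 to 13.9. The part of these markers in the forkhead differences was not tested.

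Of 28 further forkhead genes in the matrix, 4 reached the level for testing in hepatocytes: Foxp2, Foxp4, Foxn2 and Foxq1. Foxp4, a FoxP repressor, fell in both deletions. It was 5.27, 6.15, 5.5 and 5.45 RPKM in the triple null and 8.41, 9.03, 7.06 and 7.71 in FoxA3 null. It was 4.94, 4.26, 4.79 and 5.72 RPKM in Cre alfp and 9.61, 8.73 and 5.99 in lox. The groups did not overlap in either deletion, with log2 differences of -0.45 (SE 0.13, adjusted p = 0.0173 by limma) and -0.60 (SE 0.14, adjusted p = 0.0229 by limma). Foxp4 was the only 1 of these 4 genes to pass in either, where 29.7% and 5.46% of all tested genes passed. In Cre alfp against lox, 19.9% of all tested genes did not overlap. For Foxp4 the difference between the deletions was 0.15 (SE 0.19, adjusted p = 0.644). In liver Foxp4 was 1.4 and 1.69 RPKM in control and 2.52 to 4.03 in those labelled HNF4a null. The log2 difference was 0.76 (limma adjusted p = 0.00835), or 0.42 relative to the all-gene median, where 52.8% of all tested genes passed. Foxp4 did not pass there in the authors' deposited table, at 0.18 (adjusted p = 0.533).

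Foxp2 was 1.03 to 2.68 RPKM in lox and Cre alfp and 0.302 to 0.532 in FoxA3 null and triple null. It did not pass in either deletion (0.0043, adjusted p = 0.99, and 0.19, adjusted p = 0.627). In the triple null it was lower than in lox (-0.84, limma adjusted p = 0.00156) and Cre alfp (-1.04, adjusted p = 0.000205). FoxA3 null was also lower than lox (-0.85, adjusted p = 0.00321). In these 3 comparisons 42.5%, 41.2% and 34.8% of all tested genes passed. In liver Foxp2 was higher in those labelled HNF4a null (0.76, adjusted p = 0.00388), or 0.42 relative to the all-gene median. Foxn2 did not pass in either deletion (0.00082 and -0.41, adjusted p = 1 and 0.215), and Foxq1 ranged from 16.5 to 140 RPKM in hepatocytes without a difference that passed in limma. In triple null against Cre alfp, Foxq1 stood at -1.63 (SE 0.67, adjusted p = 0.0637 by limma), while the authors' deposited table passed it, at -2.11 (adjusted p = 0.00128).

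Promoter sequence shows which forkhead genes hold a forkhead core upstream of their start. Promoters were taken from RefSeq (GRCm38.p6) as the 250 bases before the start, and 7 of the 10 members had an entry; Foxo4, Foxk1 and Foxm1 had none. The motif was TGTTTAC or TGTTTGC on either strand, which do not overlap each other, and 7.29% of all 32851 promoters hold at least 1, or 8.22% of 27025 genes counted over all their promoters, as the members are. Among the 7 members it was found in Foxp1 and Foxj3, shown here because they are the members with a match, with the match in capitals.
Foxp1 (chr6:99520994-99521243, minus strand) and Foxj3 (chr4:119539411-119539660, plus strand), 5′ to 3′:
Foxp1: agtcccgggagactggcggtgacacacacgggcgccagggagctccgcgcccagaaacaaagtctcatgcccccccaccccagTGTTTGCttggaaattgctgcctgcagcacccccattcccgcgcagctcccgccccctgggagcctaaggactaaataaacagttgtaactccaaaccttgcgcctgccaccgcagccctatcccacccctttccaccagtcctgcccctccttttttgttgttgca
Foxj3: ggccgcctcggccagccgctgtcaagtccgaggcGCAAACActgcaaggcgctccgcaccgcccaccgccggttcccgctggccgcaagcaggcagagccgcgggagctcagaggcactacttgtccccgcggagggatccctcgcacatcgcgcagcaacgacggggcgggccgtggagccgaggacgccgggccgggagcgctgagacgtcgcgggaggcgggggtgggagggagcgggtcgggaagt
In Foxp1 the match begins 167 bases before the start, and in Foxj3 it begins 216 bases before it, read as the opposite strand. Neither gene passed in triple null against FoxA3 null. Among the 3 FoxA genes, Foxa1 holds a match. A match is a description of letters, not a bound site.

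The downstream genes of FoxO were read from a list of 28 textbook targets, of which 25 were tested in hepatocytes. In triple null against FoxA3 null, 5 rose and 6 fell, against 29.7% of all genes passing. Their median log2 difference was -0.0019, where that of all genes was 0.05. The list therefore moved in both directions. Against lox and against Cre alfp, 9 of the 25 were higher and 2 lower in the triple null each time, where 42.5% and 41.2% of all tested genes passed. In FoxA3 null against lox, 8 of the 25 were higher and 0 lower, where 34.8% of all tested genes passed and 21.7% passed as higher. Gadd45a, a growth arrest gene, was 74.4 ± 19.2 RPKM in triple null hepatocytes and 21.9 ± 9.89 in FoxA3 null (n = 4 each), a log2 difference of 1.77 (SE 0.42, adjusted p = 0.00594 by limma). Apoc3, an inhibitor of triglyceride clearance that insulin lowers through FoxO1, was 16599 ± 1556 against 5135 ± 1558 RPKM, a log2 difference of 1.74 (SE 0.19, adjusted p = 1.07e-05).

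Txnip, an inhibitor of thioredoxin and of glucose uptake, fell from 185 ± 72.7 to 57 ± 27.1 RPKM, a log2 difference of -1.71 (SE 0.43, adjusted p = 0.00826 by limma). G6pc, the last enzyme of glucose production, fell from 255 ± 110 to 91.9 ± 59.2 RPKM, a log2 difference of -1.50 (SE 0.48, adjusted p = 0.0291). In Cre alfp against lox, where 5.46% of all tested genes passed, 1 of the 25 did so, a share near that background. It was Pnpla2, the main triglyceride lipase, at 46.5 against 22.9 RPKM (0.95, SE 0.24, limma adjusted p = 0.0311). Pnpla2 was also among those that rose in the triple null, at 0.86. The forkhead motif was in 4 of the 24 FoxO targets with a promoter entry, among them Txnip and G6pc, whose promoters are shown because their values are given above.
Txnip (chr3:96557707-96557956, plus strand) and G6pc (chr11:101367466-101367715, plus strand), 5′ to 3′, match in capitals:
Txnip: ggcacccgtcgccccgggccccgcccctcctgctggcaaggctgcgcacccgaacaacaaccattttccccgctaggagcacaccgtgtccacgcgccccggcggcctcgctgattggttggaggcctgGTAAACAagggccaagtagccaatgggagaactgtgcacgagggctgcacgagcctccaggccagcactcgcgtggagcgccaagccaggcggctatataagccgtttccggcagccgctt
G6pc: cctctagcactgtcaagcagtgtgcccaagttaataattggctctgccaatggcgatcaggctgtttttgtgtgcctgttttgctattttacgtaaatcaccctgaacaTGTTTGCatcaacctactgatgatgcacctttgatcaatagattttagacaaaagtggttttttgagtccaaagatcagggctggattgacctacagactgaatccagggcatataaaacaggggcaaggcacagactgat
The match begins 121 bases before the start in Txnip and 141 bases before it in G6pc.

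**Figure D4:**
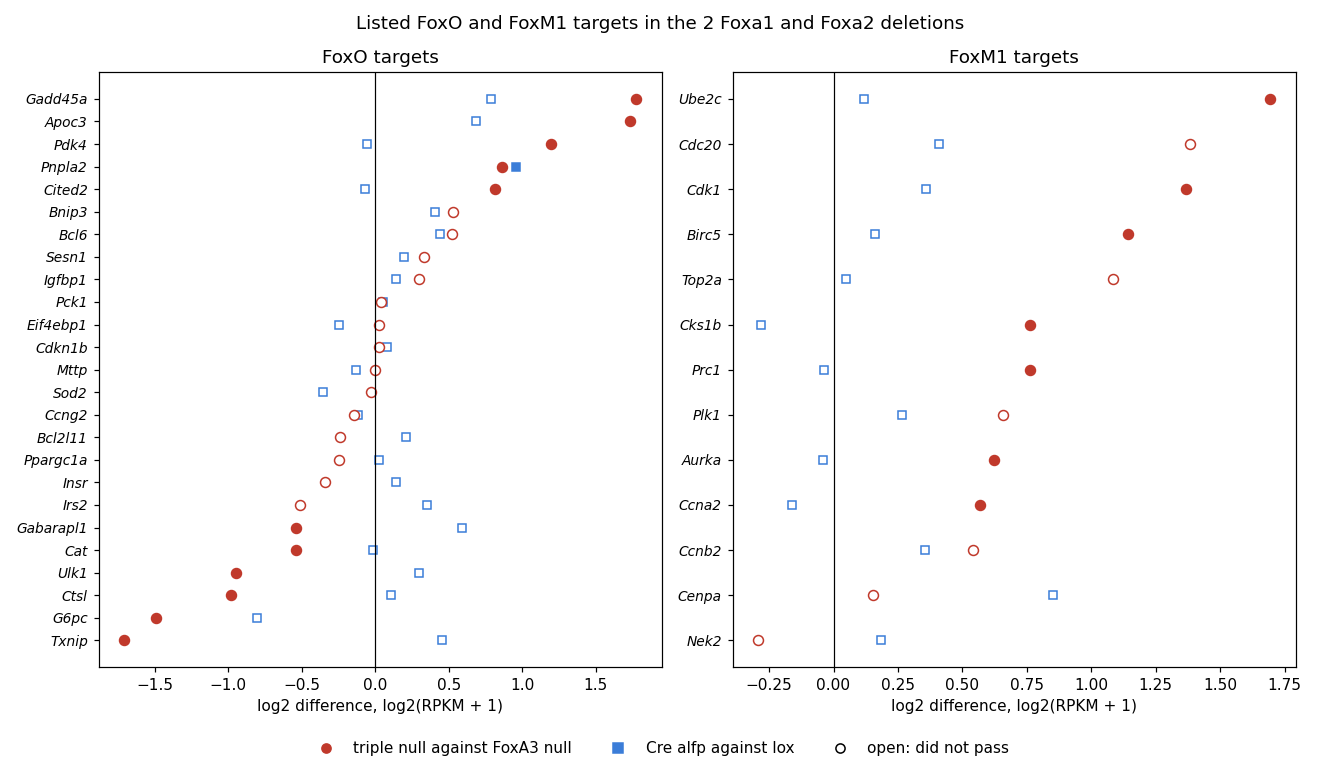
Log2 difference (x axis, log2(RPKM + 1) scale) of each tested gene (y axis) of the FoxO target and FoxM1 target lists; circles are triple null against FoxA3 null, squares Cre alfp against lox, and filled symbols passed at adjusted p under 0.05. FoxO targets lie on both sides of 0, from -1.71 to 1.77, and 12 of 13 FoxM1 targets lie to the right of it in the triple null.

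Genes that regulate FoxO proteins were read from a list of 26, with 25 tested. In triple null against FoxA3 null, 3 rose and 4 fell, a share near the 29.7% of all tested genes that passed. Ywhaz and Ywhaq encode 14-3-3 proteins, which hold phosphorylated FoxO in the cytoplasm. Ywhaz was 32.4 ± 4.0 against 16.1 ± 3.37 RPKM (0.98, SE 0.15, limma adjusted p = 0.000217), and Ywhaq 12.4 ± 0.273 against 7.91 ± 0.947 (0.59, SE 0.11, adjusted p = 0.000908). Sgk1, a kinase that phosphorylates FoxO3, fell from 9.47 ± 3.43 to 2.3 ± 0.791 RPKM (-1.63, SE 0.47, adjusted p = 0.0185). Prkaa2, a catalytic subunit of AMPK, fell from 7.07 ± 3.89 to 3.48 ± 0.622 RPKM (-0.75, SE 0.24, adjusted p = 0.0311). For Prkaa2 these groups overlapped, and it was 3.22 ± 0.354 RPKM in Cre alfp and 3.52 ± 0.867 in lox. Without triple null replicate 1, 3 of the regulators rose and 1 fell. None of the 25 passed in Cre alfp against lox, where 5.46% of all tested genes did. In the triple null 9 were higher and 2 lower than in lox, and 12 higher and 2 lower than in Cre alfp, where 42.5% and 41.2% of all tested genes passed. In FoxA3 null 8 were higher and 0 lower than in lox, where 34.8% of all tested genes passed and 21.7% passed as higher.

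Some FoxM1 targets were higher in the triple null than in FoxA3 null, while Foxm1 itself was too low to test. Of 27 listed genes, 13 were tested in hepatocytes, and in triple null against FoxA3 null 7 rose and 0 fell, where 29.7% of all tested genes passed, with a median log2 difference of 0.76. Cdk1, the kinase that starts mitosis, was 9.12 ± 6.23 RPKM in triple null hepatocytes and 2.66 ± 1.36 in FoxA3 null (1.37, SE 0.41, limma adjusted p = 0.021). Ube2c, a ubiquitin enzyme of mitotic exit, was 6.48 ± 4.85 against 0.883 ± 0.392 RPKM (1.69, SE 0.55, adjusted p = 0.0311). Birc5 (survivin) was 2.36 ± 1.36 against 0.444 ± 0.25 RPKM (1.14, SE 0.35, adjusted p = 0.0224), and Cks1b, a Cdk subunit, was 15.9 ± 6.22 against 8.44 ± 0.411 (0.76, SE 0.22, adjusted p = 0.0196).

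The triple null libraries differed in these genes. The summed RPKM of the 27 targets was 40.1, 91.5, 26.0 and 71.9 in triple null replicates 1 to 4 and 20.1, 18.3, 21.5 and 27.6 in FoxA3 null. It was 15.1 to 44.8 in lox and 23.2 to 68.5 in Cre alfp, so both overlapped the triple null. Against lox 2 of the 13 were higher in the triple null and none lower, and against Cre alfp 1 was higher and 1 lower, where 42.5% and 41.2% of all tested genes passed. The count against FoxA3 null rested on single libraries: it was 0 without triple null replicate 2, 2 without triple null replicate 4, 1 without FoxA3 null replicate 2 and 4 without FoxA3 null replicate 1. Triple null replicate 2 was also highest in neutrophil markers, at 109 RPKM against 9.13, 23.8 and 24.2 in the other triple null libraries. Among these it was highest too in macrophage markers (30.1 RPKM against 15.4, 8.78 and 9.98) and stellate and fibroblast markers (22.6 against 18.6, 6.27 and 9.01). Lymphocyte and cholangiocyte markers were also highest there, at 1.13 and 4.54 RPKM, and hepatocyte markers lowest, at 28162. Endothelial and erythroid markers were highest in triple null replicate 1. The part of such cells in the result was not tested. None of the 13 passed in Cre alfp against lox, where 5.46% of all tested genes did. Of the MuvB proteins, which FoxM1 joins on DNA, Lin52 rose (0.65, adjusted p = 0.00797) and Rbbp4 fell (-0.60, adjusted p = 0.00283) of 5 tested in triple null against FoxA3 null, where 29.7% of all tested genes passed.

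MuvB binds the cell cycle homology region, TTTGAA, which was found on either strand in 16.0% of all promoters and 18.3% of all genes, in 10 of 22 FoxM1 targets with an entry, and in Foxp1 and Foxn3 among the members. The promoter of Cdk1 is shown as an example with 2 matches, in capitals, beginning 71 and 15 bases before the start.
Cdk1 (chr10:69352913-69353162, minus strand), 5′ to 3′:
Cdk1: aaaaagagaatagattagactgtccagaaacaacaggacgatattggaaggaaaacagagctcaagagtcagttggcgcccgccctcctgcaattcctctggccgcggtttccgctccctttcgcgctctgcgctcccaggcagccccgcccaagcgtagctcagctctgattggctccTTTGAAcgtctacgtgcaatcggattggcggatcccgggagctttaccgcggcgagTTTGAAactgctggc

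Of 10 tested FoxK partners, none rose and 2 fell in triple null against FoxA3 null, where 29.7% of all tested genes passed. These were Dvl3 and Dvl2, Dishevelled proteins that FoxK proteins carry into the nucleus, at 2.19 ± 0.503 against 4.55 ± 1.07 RPKM (-0.79, adjusted p = 0.00102) and 0.823 ± 0.133 against 2.15 ± 0.401 RPKM (-0.78, adjusted p = 0.000894). Of 4 tested glycolytic genes that FoxK proteins activate, Pkm2, a pyruvate kinase, rose from 0.859 ± 0.255 to 3.27 ± 0.57 RPKM (1.20, SE 0.19, limma adjusted p = 0.000342).

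In the libraries labelled HNF4a null, where 52.8% of all tested genes passed, 7 of 27 tested FoxO targets rose and 7 fell, a share near that background, with a median of -0.13 where all genes had 0.34. Apoc3 fell from 1768 to 28.9 RPKM (-5.91, adjusted p = 2.91e-06), G6pc from 184 to 24.4 (-3.07, adjusted p = 0.00844) and Mttp, needed to load lipoproteins, from 76.9 to 10.5 (-2.76, adjusted p = 2.13e-05). Txnip rose from 34.1 to 322 RPKM (3.19, adjusted p = 1.06e-05). Sgk1 rose from 8.88 to 87.2 RPKM (3.14, adjusted p = 7.89e-05), and 11 of 25 tested FoxO regulators rose and 1 fell, a share near the background with a median of 0.34, as over all genes. Of 16 tested FoxM1 targets 9 rose and none fell, again a share near the background but with a median of 0.81, with Cdk1 at 6.73 against 1.59 RPKM (1.61, adjusted p = 0.00953). Txnip and Sgk1 thus rose here and fell in the triple null, with no test between these separate fits.

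Values across liver development come from the authors' deposited tables, whose hepatoblast and newborn libraries were not analysed here. In hepatoblasts, the embryonic liver progenitors, all 10 members passed against adult hepatocytes, where 79.2% of all genes passed, so a passing member is common there. Foxm1 was 7.12 higher on the log2 scale, Foxk1 2.65, Foxj3 2.35, Foxk2 2.08 and Foxp1 2.00, and Foxo1 alone was lower, at -1.92. In newborn hepatocytes 7 members passed, 3 higher and 4 lower, where 63.3% of all genes passed. Foxm1 was still 4.37 higher, while Foxn3 stood at -1.76, Foxp1 at -0.91, Foxo4 at -0.82 and Foxo1 at -0.71.

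The authors' deposited table of triple null against hepatoblasts passed 9 members, 2 higher and 7 lower, where it passed 81.2% of all genes. Foxo1 was 2.19 and Foxo3 0.64 higher in the triple null, and Foxm1 and Foxp1 were lower, at -7.01 and -3.03. Foxp1 was thus above the adult level in hepatoblasts and below it in newborns in the deposited tables.

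**Figure D5:**
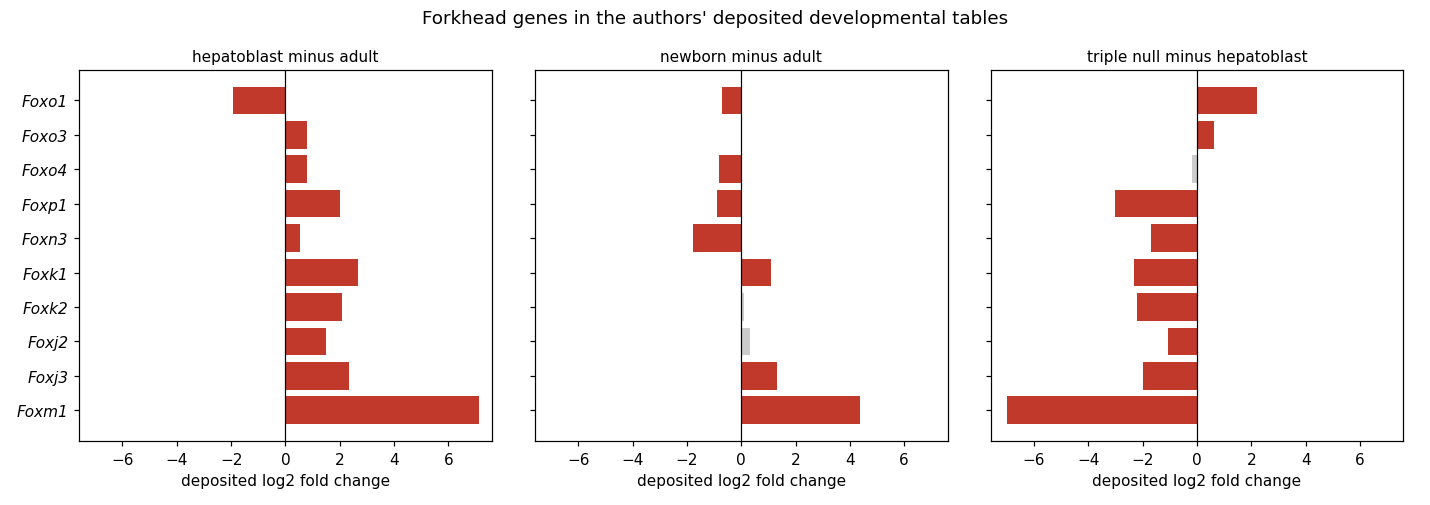
Log2 fold changes (x axis) from the authors' deposited developmental tables for the 10 forkhead genes (y axis); red bars passed at adjusted p under 0.05 and grey bars did not. Foxm1 has the longest bar in each panel, at 7.12, 4.37 and -7.01.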

How the data were processed

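RNA values are RPKM in a matrix that the authors deposited for 33773 gene symbols. Per the submitters' processing notes, SAMtools, Cufflinks 2.2.1, DESeq2 and build mm9 were used, with no roles given. Of the matrix columns, 21 matched a sample or group by name and 9 matched none and were not used. The HNF4a columns are named by barcode and hold no replicate number. The 7 comparison tables hold the authors' deposited log2 fold changes with p-values; their tests and filters are not given in the sources used here. The sign of the table against undeleted controls was turned, and the p-values of the table against Cre alfp were adjusted by the Benjamini-Hochberg method. DESeq2 was not run, since no counts were used.

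The test was limma 3.58.1 (R 4.3.3; lmFit, eBayes with trend) on log2(RPKM + 1), where changes of low genes look smaller than they are. One fit held the 15 hepatocyte libraries (genes at RPKM 1 or more in 3 or more of them) and another the 6 liver libraries (2 or more of them). A gene passed at a Benjamini-Hochberg adjusted p under 0.05 over all tested genes; the script was tested on simulated data. Members and gene lists were chosen with earlier results of these data known. Every member is named, every tested gene of the other forkhead list, and up to 4 passing genes of each pathway list by size of difference. The planned naming of genes most like a passing member selected none. Alternatives were the pseudocount, the low filter, scaling, a minimum difference, leaving out each library, only the groups compared, a replicate block and the deposited tables. Absolute depth is unknown, so no counting interval is given. Chromatin data were not analysed here.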

Additional observations from a re-analysis of the deposited data

Results flagged for a closer look

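Over 196 groups of 4 libraries and genes checked for 1 library apart from the rest, 11 were found, and chance gives about 1 in 20 such groups. Among forkhead genes, Foxk1 was 4.10 RPKM in FoxA3 null replicate 1 and 2.86 to 3.01 in the other 3 libraries. Foxj2 was 1.26 RPKM in 1 library labelled HNF4a null and 1.49 to 1.51 in the others. In FoxA3 null replicate 3, Foxa2 was 20.6 RPKM against 11.1 to 11.8, and Foxq1 was 99.0 RPKM against 16.5 to 24.2. Pkm2 was 1.24 RPKM in FoxA3 null replicate 1 against 0.689 to 0.777.

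In Cre alfp replicate 3, Cdk1 was 6.73 RPKM against 2.92 to 3.41 and Birc5 was 5.03 against 0.823 to 1.43. Ogt was 24.5 RPKM in Cre alfp replicate 4 against 11.8 to 13.5. In the libraries labelled HNF4a null, 1 library each stood apart for Apoc3 (38.6 RPKM against 24.7 to 26.9), Lin54 (4.53 against 3.29 to 3.47) and Irs1 (1.59 against 1.29 to 1.33).

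The effect of the Foxa1 and Foxa2 deletion differed between the triple null and Cre alfp, each set against its own control, for 6 of 30 named pathway genes (20.0%), by the interaction in limma, which 14.4% of all tested genes passed. Pathway genes were named for passing in single comparisons, among them both that make up the interaction, so they were not chosen independently of it. The interaction on the log2 scale was 1.05 for Apoc3 (adjusted p = 0.0219), -2.16 for Txnip (adjusted p = 0.0347), 1.05 for Ywhaz (adjusted p = 0.00631), 0.68 for Ywhaq (adjusted p = 0.011), 1.04 for Cks1b (adjusted p = 0.0486) and -0.66 for Dvl2 (adjusted p = 0.0478). It sets lox and Cre alfp against FoxA3 null and triple null, so a technical difference, the virus, the Cre used and FoxA3 cannot be told apart.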

How the results depend on the processing

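Limits come first from the libraries: groups hold 2 to 4, absolute depth is unknown, and Foxm1 was too low to enter the test. By the deposited tables of the authors, members passed numbered 3 for triple null against FoxA3 null, with 7 in liver, Foxk2 (-0.56) and Foxj3 (-0.014) turned sign in liver, as did Foxk2 in triple null against lox (-0.12) and Foxk1 in triple null against Cre alfp (-0.14). With a log2 difference of at least 1, 933, 274, 784, 1556, 1184, 827 and 1807 genes passed in the 7 comparisons (triple null against FoxA3 null, Cre alfp against lox, the interaction, triple null set against lox and then Cre alfp, FoxA3 null against lox, liver), and 1, 1, 0 and 1 members passed for triple null set against lox and Cre alfp, for FoxA3 null against lox and in liver. With a mean RPKM of at least 5, 408 genes passed in Cre alfp against lox and 4219 in liver, and 3, 2 and 2 members in triple null against Cre alfp, FoxA3 null against lox and liver. After median scaling 1 member passed for triple null against FoxA3 null, with 3 for triple null against Cre alfp. Turned signs were Foxp1 (-0.015) and Foxj2 (-0.022) in Cre alfp against lox, Foxk2 (-0.062) in triple null against lox, Foxk1 (-0.086) in triple null against Cre alfp, Foxo1 (-0.082) in FoxA3 null against lox and Foxk2 (-0.059) in liver. Quantile normalization turned the same comparisons for Foxp1 (-0.021), Foxj2 (-0.045), Foxk2 (-0.0076 and -0.065) and Foxo1 (-0.088), and Foxj2 in liver (-0.0054). None of these turned values passed, apart from Foxk2 in the deposited liver table. Median scaling moved the share of lower calls from 34.9% to 48.3% in triple null against lox, from 34.9% to 46.8% in triple null against Cre alfp, from 37.5% to 49.4% in FoxA3 null against lox and from 22.2% to 48.2% in liver. With only the 2 groups compared in the fit, 1 member passed for triple null against FoxA3 null, with 380 genes in Cre alfp against lox.

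Same-numbered libraries shared only a number: their deviations correlated at -0.36 to 0.018 in triple null and FoxA3 null and at -0.20 to 0.12 in Cre alfp and lox, and none correlated best with its own number. With the replicate block, 259 genes and no member passed in Cre alfp against lox, and 812 genes and no member in the interaction. Foxj2 (-0.035) and Foxj3 (-0.020) turned in Cre alfp against lox. No paired analysis was possible in liver because the columns carry no replicate numbers.

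Leaving out 1 library gave 278 to 595 genes in Cre alfp against lox, 2368 to 4540 in FoxA3 null against lox, 1043 to 1853 in the interaction and 4030 to 6119 in liver. Members passed numbered 0 to 2 in triple null against FoxA3 null, 3 to 7 in triple null against lox, 3 to 5 in triple null against Cre alfp, 2 to 5 in FoxA3 null against lox and 3 to 5 in liver. Without 1 library, chosen as an alternative after the data were seen, the lists in triple null against FoxA3 null gave 0 to 10 FoxM1 targets, 4 to 7 FoxO regulators, 10 to 11 FoxO targets and 1 to 2 FoxK glycolytic genes. Signs turned within these ranges: in Cre alfp against lox Foxj2 -0.059 to 0.061, Foxj3 -0.056 to 0.25, Foxn3 -0.098 to 0.044 and Foxp1 -0.12 to 0.12; in triple null against FoxA3 null Foxn3 -0.34 to 0.0058 and Foxo4 -0.18 to 0.14; in the interaction Foxn3 -0.30 to 0.050 and Foxo3 -0.060 to 0.43; Foxk1 -0.068 to 0.15 in triple null against Cre alfp, Foxk2 -0.027 to 0.18 in triple null against lox and Foxo1 -0.15 to 0.17 in FoxA3 null against lox. The cause of these changes was not tested.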

Other observations

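Foxq1 varied widely between replicates in hepatocytes. It was 20.3, 86.5 and 31.8 RPKM in lox, 130, 109, 24.4 and 140 in Cre alfp, 24.2, 16.5, 99.0 and 17.5 in FoxA3 null and 17.2, 24.9, 60.3 and 18.6 in the triple null. The groups overlapped. In liver Foxq1 was 5.69 and 11.3 RPKM in control and 3.47 to 6.52 in those labelled HNF4a null. Its log2 difference there was -0.72 (limma adjusted p = 0.0814), while the authors' deposited table passed it, at -1.44 (adjusted p = 1.98e-09).

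Foxn2 was 2.35 to 3.74 RPKM in the triple null and 1.49 to 2.83 in Cre alfp, and differed between them by 0.50 (limma adjusted p = 0.0216). In liver it was 4.83 and 3.97 RPKM in control and 5.87 to 7.74 in those labelled HNF4a null (0.56, limma adjusted p = 0.0125).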
